A study of Mus musculus with 6 samples.

Results

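The CCN genes *Ctgf*, *Cyr61*, *Nov*, *Wisp1* and *Wisp2* were followed across the cell types of mouse lower abdominal muscle (LAM), and their levels were compared between wild-type (WT) and Aromhum mice. They were chosen by name, as 5 of the 16494 genes in the table, with earlier results of these data known. *Wisp3*, the remaining gene of the family, had 100 unique molecular identifiers (UMIs, counted transcripts) over all libraries and was left aside.

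CCN proteins are secreted matricellular proteins. They are held in the extracellular matrix, bind integrins, heparan sulfate proteoglycans, LRP receptors and growth factors, and change how a cell responds to the matrix around it rather than building that matrix. *Ctgf* (also *Ccn2*, connective tissue growth factor) and *Cyr61* (*Ccn1*) are rapidly induced genes and common readouts of the coactivators YAP and TAZ, which act through TEAD transcription factors, and *Ctgf* is a classical TGF-beta target in fibrosis. *Nov* (*Ccn3*) is a further secreted family member that often opposes *Ctgf*. *Wisp1* (*Ccn4*) and *Wisp2* (*Ccn5*) were first described as Wnt-induced genes, and *Wisp2* lacks the C-terminal cysteine knot that the other members carry.

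LAM came from 3 WT and 3 Aromhum mice, all males of the FVB/N strain aged 9 to 10 weeks, and was dissociated, strained to remove multinucleated cells and profiled with the 10x Genomics 3′ single-cell protocol. Aromhum mice carry the human aromatase gene *CYP19A1*, whose enzyme makes estrogens from androgens, under the promoters of the human gene, so that its expression follows the human tissue pattern and is not aimed at 1 cell type. GEO's labels give scrotal hernia for the Aromhum mice and control for the WT mice. According to the methods, 1 WT mouse and 1 transgenic littermate were processed on each of 3 dates, and the sources used here do not tie a replicate number to a date.

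The 6 libraries held 7905 to 13764 barcodes and 64958237 to 111826460 UMIs each. The transgene had 770, 797 and 787 UMIs in the Aromhum mice (Arom1, Arom2, Arom3) and 0 in each WT mouse. Over all libraries *Ctgf* had 174580 UMIs, *Cyr61* 277390, *Nov* 29979, *Wisp1* 10818 and *Wisp2* 79397. The same barcode sequence occurred in more than 1 library for 943 of the 63647 barcodes (1.48%). Mitochondrial UMIs passed 5% in 37.95%, 68.2% and 40.05% of the barcodes in WT1, WT2 and WT3. In Arom1, Arom2 and Arom3 the shares were 30.4%, 30.9% and 27.6%. Median UMIs a barcode were 5362, 4728 and 5897 in WT and 7125, 6673 and 8727 in Aromhum libraries. Both values split by genotype without overlap. Arom3 stood apart from Arom1 and Arom2 in several values, which are given beside the results they touch.

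In the mm10 mouse genome (GRCm38, RefSeq annotation) *Ctgf* lies on chromosome 10 from 24595442 to 24598683 on the forward strand, and *Cyr61* on chromosome 3 from 145646971 to 145649985 on the reverse strand. *Nov* and *Wisp1* share chromosome 15, *Nov* from 54745910 to 54753762 and *Wisp1* from 66891369 to 66923201, both on the forward strand. *Wisp2* lies on chromosome 2 from 163820752 to 163833146 on the forward strand. Of the 5 members, 1 was matched in RefSeq's promoter table, *Cyr61*. Its promoter, from 250 bases before to 50 bases after its start, is shown because *Cyr61* is a common readout of YAP, TAZ and TEAD and was lower in the Aromhum mice in 2 cell groups described further on. It is chr3:145649936-145650235 in RefSeq's GRCm38 sequence, written 5′ to 3′ along the gene's own (reverse) strand, and capitals mark the only match to the TEAD core motif GGAATG, here as its reverse complement CATTCC.
Cyr61 promoter: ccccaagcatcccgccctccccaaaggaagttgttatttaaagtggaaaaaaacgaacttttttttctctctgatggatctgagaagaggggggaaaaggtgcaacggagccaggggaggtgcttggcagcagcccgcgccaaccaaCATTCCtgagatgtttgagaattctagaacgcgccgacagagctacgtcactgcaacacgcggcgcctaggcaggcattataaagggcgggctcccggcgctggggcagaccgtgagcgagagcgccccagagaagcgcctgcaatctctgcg
The match begins 103 bases before the start. On either strand the motif is in 14.7% of the 32851 promoters of this length, so a match there is common. TATAAA, the TATA box core, had 1 match, 25 bases before the start (13.6% of promoters hold it on either strand), and the AP-1 motif TGANTCA had none (7.81% hold it); the TEAD and TATA matches do not overlap. These matches are letters in a window and not evidence of binding.

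Cells were clustered on genes other than the 5 members, and all but 4 of 34 clusters were matched to 11 cell types by marker lists: fibroblast-like, endothelial-like, lymphatic endothelial-like, smooth muscle-like, muscle stem cell or myoblast-like (MuSC), myonuclei-like, mesothelial-like, glial-like, macrophage-like, T cell-like and neutrophil-like cells. The suffix is left out from here on, except for fibroblasts. The 23567 fibroblast-like cells and the 16777 endothelial cells were the largest types. In every type all of its markers in the table were at more than 2 times their level in the other cells, with none at 0. The same markers named the clusters, so this follows in part from the naming and is no separate check. The 4 unnamed clusters held 4147 cells. A level is a gene's UMIs in the cells of 1 type and mouse, scaled to a total of 1000000 UMIs (counts per 1000000, CPM), and is compared within a gene and not between genes. Means are followed by ± SD, mice with fewer than 10 cells of a type are left out, and levels between types are described without a test, because the types come from clusters of the same cells.

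*Ctgf* was highest in MuSCs (812 ± 256 CPM, n = 6 mice), fibroblast-like cells (573 ± 142 CPM) and smooth muscle cells (435 ± 151 CPM). With all cells, the ranges of these 3 types over mice overlapped, and none of them overlapped with any type ranked lower. This separation was lost in part within the study's limits on cells. Smooth muscle cells were then at 113.7 ± 105.5 CPM, below mesothelial cells (129.0 ± 110.4 CPM, n = 5 mice). The mesothelial range, up to 300.2 CPM, overlapped with that of fibroblast-like cells (240.8 to 576.1 CPM). MuSCs, from 613.6 to 1362 CPM, stood above all 3 of these types. With all cells, endothelial cells had 74.7 ± 59.6 CPM of *Ctgf* and macrophages, at the end of the order over all mice, 41.7 ± 16.8 CPM. In WT, T cells were below macrophages (6.43 against 27.6 CPM), and in Aromhum mice neutrophils were (38.1 CPM in 2 mice, against 55.8 CPM). *Cyr61* was spread more widely: MuSCs (695 ± 245 CPM), lymphatic endothelial cells (694 ± 91.8 CPM), smooth muscle cells (687 ± 149 CPM) and fibroblast-like cells (628 ± 119 CPM) were not separated by their ranges. By genotype, MuSCs led in WT (889 CPM) and lymphatic endothelial cells in Aromhum mice (717 CPM). *Cyr61* was at 360 ± 70.2 CPM in endothelial cells and at 69.6 ± 31.7 CPM in macrophages. Within the study's limits glial cells led *Cyr61* at 1001 ± 227 CPM, from 10 to 74 cells a mouse, and MuSCs had 745 ± 298 CPM. With all cells, glial cells had 398 ± 71.9 CPM.

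*Nov* and *Wisp2* were highest in fibroblast-like cells in both genotypes, and *Wisp1* over all 6 mice. *Nov* was at 98.3 ± 19.4 CPM there, the lowest mouse at 75.6 CPM and the highest at 123 CPM, and did not overlap with the next type, lymphatic endothelial cells (49.9 ± 13.9 CPM). MuSCs had 2.18 ± 2.22 CPM of *Nov*, at the other end of the order from *Ctgf* and *Cyr61*, whose means over all mice were highest in them. *Wisp1* was at 30.1 ± 11.6 CPM in fibroblast-like cells and 28.1 ± 10.4 CPM in MuSCs, with overlapping ranges, and at 3.48 ± 2.99 CPM in endothelial cells. In WT mice MuSCs were the higher of the 2 (24.4 against 20.2 CPM), and in Aromhum mice fibroblast-like cells (40.0 against 31.8 CPM). *Wisp2* was at 210 ± 208 CPM in fibroblast-like cells, with a spread as large as the mean, from 63.8 CPM in WT2 to 541 CPM in Arom2. T cells came next in *Wisp2* with 47.8 ± 65.7 CPM, from only 20 to 180 cells a mouse, and with 4.89 CPM in WT against 90.7 CPM in Aromhum mice. The orders of *Nov* and *Wisp1* changed within the study's limits on cells. Glial cells then led *Nov* in WT, at 90.4 ± 114 CPM against 63.8 ± 14.4 CPM in fibroblast-like cells. MuSCs led *Wisp1* in WT (43.05 against 17.8 CPM in fibroblast-like cells) and in Aromhum mice (39.5 against 21.2 CPM).

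**Figure D1:**
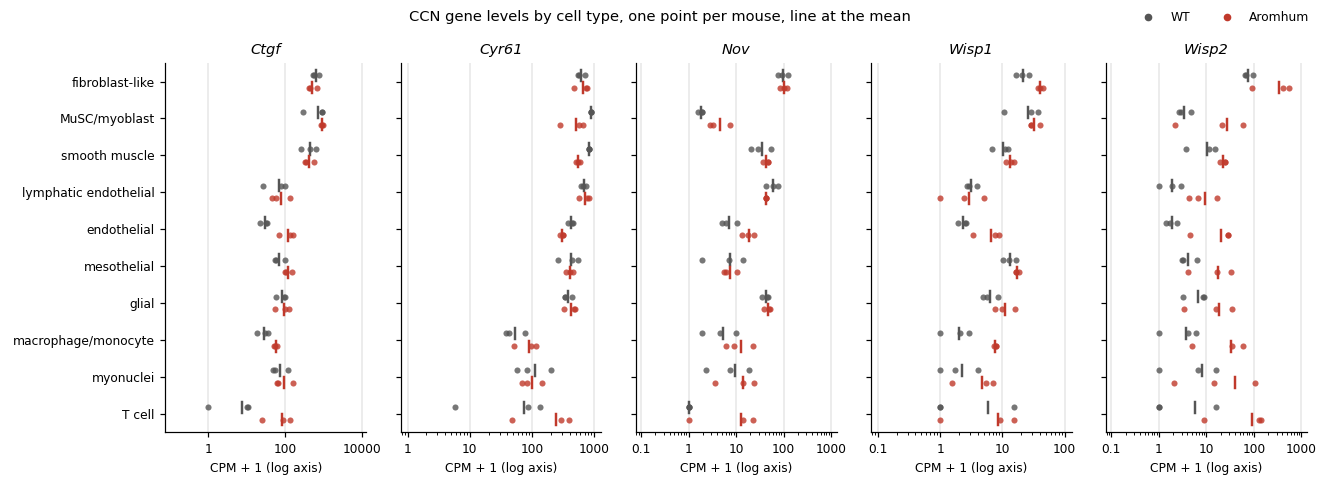
Level of each CCN gene in the named cell types other than neutrophils, 1 point per mouse with at least 10 cells of the type. The axis is a log axis of CPM + 1, and the vertical lines are the means of the WT (grey) and Aromhum (red) mice. *Nov* and *Wisp2* are highest in fibroblast-like cells, the *Wisp1* ranges of fibroblast-like cells and MuSCs overlap, and the 4 highest types of *Cyr61* overlap.

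Fibroblast-like cells held most of the *Ctgf*, *Nov*, *Wisp1* and *Wisp2* UMIs in every library. They carried 74.5% ± 7.99 of the *Ctgf* UMIs of a WT library and 81.5% ± 0.854 of an Aromhum library (SD, n = 3 mice each). The shares were 79.4% ± 9.39 and 89.3% ± 4.81 for *Nov*, 73.4% ± 5.21 and 85.3% ± 1.57 for *Wisp1*, and 92.9% ± 2.04 and 95.1% ± 0.812 for *Wisp2*. Of *Cyr61*, fibroblast-like cells held 58.9%, 36.0% and 30.0% of the UMIs in WT libraries (41.6% ± 15.3) and 72.4% ± 11.4 in Aromhum libraries, and endothelial cells 20.3% ± 5.57 and 6.92% ± 4.33. The 4 unnamed clusters together held 19.2% ± 6.355 of the *Cyr61* UMIs in WT libraries and 5.045% ± 2.52 in Aromhum libraries. Fewer cells of a type and less RNA per cell cannot be told apart in such shares.

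Of the fibroblast-like clusters, 6 groups were named by markers. These were *Esr1*-high hernia-associated fibroblasts (HAFs, 4912 cells), *Mmp3*-high HAFs (2903 cells), fibro-adipogenic progenitors (FAPs, 6334 cells), tenocyte progenitors (3888 cells), tenocytes (1597 cells) and *Dmkn*-high fibroblasts (3003 cells). The tenocyte progenitor name was a narrow choice, with a marker score of 2.2 against 1.96 for tenocytes. All 6 of its markers were detected, but only 1, *Tgfbi*, was among its leading genes, behind *Tspan8*, *Mup5* and *Inmt*. The members differed in the group where they were highest. *Ctgf* was highest in *Esr1*-high HAFs (1172 ± 597 CPM) and tenocytes (873 ± 202 CPM) and lowest in *Dmkn*-high fibroblasts (51.6 ± 33.2 CPM). *Esr1*-high HAFs led in WT (1650 against 928 CPM) and tenocytes in Aromhum mice (818 against 694 CPM). *Cyr61* was likewise highest in *Esr1*-high HAFs (1249 ± 384 CPM) and lowest in *Dmkn*-high fibroblasts (246 ± 35.1 CPM).

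*Nov* ran the other way, with 147 ± 40.3 CPM in *Dmkn*-high fibroblasts, 123 ± 10.9 CPM in FAPs and 45.0 ± 38.8 CPM in tenocytes, although all neighbours in its order overlapped and FAPs led in WT (132 against 124 CPM). *Wisp1* was highest in tenocytes (122 ± 39.7 CPM), where every mouse was above every mouse of the next group (*Esr1*-high HAFs, 49.5 ± 14.4 CPM), and was at 5.01 ± 3.93 CPM in *Dmkn*-high fibroblasts. *Wisp2* was highest in *Mmp3*-high HAFs (647 ± 376 CPM, n = 4 mice, 1 of them WT), then over all mice in tenocyte progenitors (223 ± 64.5 CPM), and lowest in FAPs (28.8 ± 16.4 CPM). The first place came from Aromhum mice: in WT1, the 1 WT mouse, *Mmp3*-high HAFs (190 CPM) were below its tenocyte progenitors. In Aromhum mice *Esr1*-high HAFs (356 CPM) were above tenocyte progenitors (275 CPM), and in WT *Dmkn*-high fibroblasts (8.64 CPM) were below FAPs (17.2 CPM).

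Over the 11 types and the fibroblast groups, taken without the fibroblast-like total (16 groups, log2 of the mean CPM + 1), the genes most like each member were found by Pearson's r, as a description of groups that share libraries. *Ctgf* ran most like *Gm266* (r = 0.867), *C1qtnf3* (0.828) and *Mxra7* (0.827). *Id3* (0.864) and *Cdc42ep5* (0.857) were among the genes most like *Cyr61*. The genes most like *Nov* were *Nid1* (0.951), which encodes the basement membrane protein nidogen, *Tnxb* (0.922) and *Nox4* (0.880). *Wisp1* ran most like *C1qtnf3* (0.879), the collagen gene *Col12a1* (0.864) and *Pofut2* (0.861). *Wisp2* ran most like the matricellular gene *Thbs2* (0.944), the collagen crosslinking enzyme gene *Lox* (0.917) and the fibrillin gene *Fbn2* (0.888). Among the members, r was 0.755 for *Ctgf* and *Wisp1*, 0.731 for *Ctgf* and *Cyr61*, 0.671 for *Wisp1* and *Wisp2*, and 0.143 for *Nov* and *Wisp1*.

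**Figure D2:**
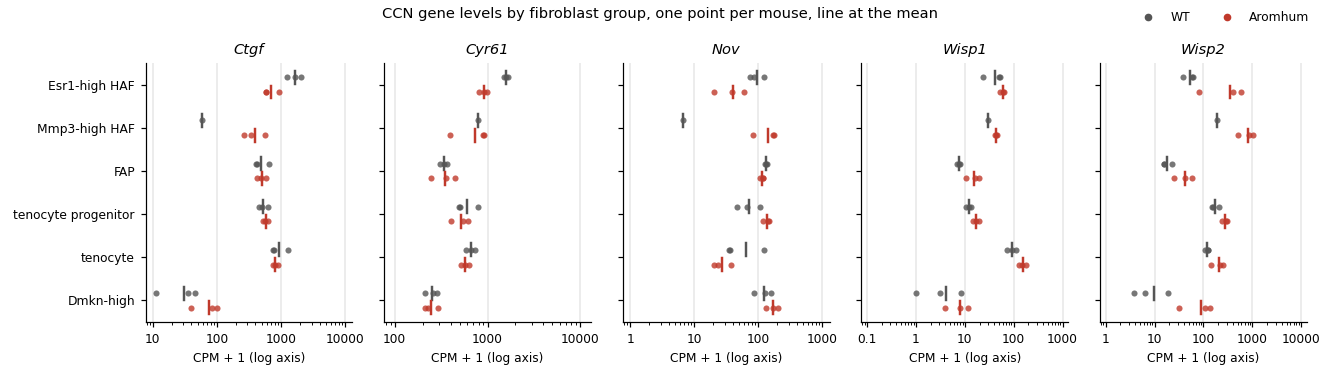
Level of each CCN gene in 6 fibroblast groups, 1 point per mouse with at least 10 cells of the group, on a log axis of CPM + 1; the vertical lines are the means of the WT (grey) and Aromhum (red) mice. In *Esr1*-high HAFs the Aromhum mice lie below the WT mice for *Ctgf*, *Cyr61* and *Nov* and above them for *Wisp2*.

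The genotypes were compared in fibroblast-like cells as a whole. *Wisp1* and *Wisp2* were higher on average in the Aromhum mice, whereas *Ctgf*, *Cyr61* and *Nov* changed little. *Wisp1* was at 19.9, 15.4 and 25.4 CPM in WT1, WT2 and WT3 and at 44.6, 39.0 and 36.3 CPM in Arom1, Arom2 and Arom3. All Aromhum mice were above all WT mice, as for no other member, and *Wisp1* rose by 0.97 on the log2 scale (SE 0.196, edgeR adjusted p = 0.0299). The genotypes did not overlap in 38.7% of all genes tested. Here and below, that share of all genes is taken on CPM with TMM size factors and the members' overlap on plain CPM. The share was taken in fibroblast-like cells, *Esr1*-high HAFs, FAPs and endothelial cells alone, so overlap in other groups has no such share beside it. Of all genes tested in these cells 13% were called, 1824 of 14031, and of the 5 members 1 was.

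*Wisp2* was at 94.7, 63.8 and 67.2 CPM in WT and at 402.5, 541 and 90.1 CPM in Aromhum mice. Arom3 lay within the WT range, and the difference of 2.19 on the log2 scale (SE 0.608) did not pass the test (edgeR adjusted p = 0.0571). *Ctgf* was at 545.5, 575 and 786 CPM in WT and 438, 415 and 679 CPM in Aromhum mice. The groups overlapped, with a log2 difference of -0.34 (SE 0.210, edgeR adjusted p = 0.301). *Cyr61* differed by 0.09 (SE 0.237, edgeR adjusted p = 0.81) and *Nov* by 0.05 (SE 0.205, edgeR adjusted p = 0.883), with mice of both genotypes interleaved.

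The outcome of these tests changed when single mice were left out, and the cause was not tested. The *Wisp1* call held without Arom3 (log2 1.08, edgeR adjusted p = 0.0101) and was lost without any other single mouse, WT1, WT2, WT3, Arom1 or Arom2, at log2 0.80 to 1.16 and adjusted p up to 0.121; without Arom3 *Wisp2* was also called (log2 2.67, edgeR adjusted p = 0.000958), as it was with DESeq2 on all mice (2.20, adjusted p = 0.0190). Within the study's limits on cells (200 to 2500 genes, at least 1000 UMIs, at most 5% mitochondrial UMIs) *Wisp1* differed by 0.20 (edgeR adjusted p = 0.773) and only 1 gene of all was called, whereas with the mitochondrial limit alone it differed by 1.02 (edgeR adjusted p = 0.0345).

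*Esr1*-high HAFs are named for the estrogen receptor gene *Esr1*, which was at 229.9 ± 39.9 CPM in them and at 74.3 ± 26.3 CPM in fibroblast-like cells as a whole (n = 6 mice). In them the members moved in opposite directions: *Ctgf* and *Cyr61* fell and *Wisp2* rose. *Ctgf* was at 1252, 1628 and 2071 CPM in WT and 578, 587.5 and 918 CPM in Aromhum mice, so that the highest Aromhum mouse was below the lowest WT mouse. It fell by 1.28 on the log2 scale (SE 0.233, edgeR adjusted p = 0.0173). Of the genes tested in this group 12.1% were called, 1472 of 12181, and of the members 3 of 5.

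*Cyr61* was at 1598, 1679 and 1497 CPM in WT and 919, 992 and 810 CPM in Aromhum *Esr1*-high HAFs. The groups stood apart and were narrow, and *Cyr61* fell by 0.83 (SE 0.146, edgeR adjusted p = 0.0163). *Wisp2* was at 56.3, 59.98 and 37.5 CPM in WT and 408, 580 and 80.6 CPM in Aromhum mice. All Aromhum mice were above the WT mice, Arom3 the least, and *Wisp2* rose by 2.78 (SE 0.632, edgeR adjusted p = 0.0303).

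*Nov* was at 73.2, 122 and 85.2 CPM in WT and 37.5, 59.9 and 19.6 CPM in Aromhum *Esr1*-high HAFs. The groups did not overlap, but the difference of -1.26 (SE 0.380) did not pass the test (edgeR adjusted p = 0.0653; with DESeq2 0.0102 and with the replicate number as a block 0.00648). *Wisp1* was at 49.4, 22.0 and 51.3 CPM in WT and 59.3, 52.2 and 62.5 CPM in Aromhum mice, a difference of 0.47 (SE 0.281, edgeR adjusted p = 0.296). The genotypes thus did not overlap for 5 of 5 members in plain CPM, and for 35.1% of the genes tested with TMM size factors. For *Wisp1* the gap was narrow, from 51.3 CPM in WT3 to 52.2 CPM in Arom2.

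Each of the 3 calls in *Esr1*-high HAFs was lost in some fits without 1 mouse. *Ctgf* lost its call without WT2, WT3, Arom1 or Arom2 (log2 -1.29 to -1.07, adjusted p up to 0.078), *Cyr61* without WT2, WT3 or Arom1 (log2 -0.87 to -0.80, adjusted p up to 0.0646), and *Wisp2* without any mouse other than Arom3 (log2 2.24 to 2.89, adjusted p up to 0.114). Within the study's limits on cells, which left 14 to 116 of these cells a mouse, no member was called and the differences were -0.59 for *Ctgf*, -0.87 for *Cyr61* and 2.11 for *Wisp2* (edgeR adjusted p = 0.37, 0.342 and 0.074).

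Shares of *Esr1*-high HAFs with a UMI depend on depth, which was higher in Aromhum cells. Thinned to 1000 UMIs a cell, 58.8% ± 8.14 of WT and 37.5% ± 4.17 of Aromhum cells had *Ctgf*, against 90.2% ± 4.99 and 79.7% ± 3.38 before thinning, at median depths of 10270 to 11610 and 13880 to 19300 UMIs a cell. For *Cyr61* the shares were 93.2% ± 2.56 and 93.5% ± 1.85 before thinning and 60.9% ± 3.07 and 49.9% ± 4.88 after it. The *Wisp2* shares were 14.5% ± 6.30 and 45.9% ± 21.5 before and 3.07% ± 0.846 and 18.7% ± 11.8 after thinning. Macrophages, at 4473 to 9570 median UMIs, had thinned shares of 1.595% ± 1.43 in WT and 2.06% ± 0.0690 in Aromhum mice for *Ctgf*, 4.22% ± 0.462 and 3.59% ± 0.910 for *Cyr61*, and 0.191% ± 0.331 and 1.05% ± 1.03 for *Wisp2*, all below those of *Esr1*-high HAFs.

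Immediate early genes differed in the same cells. The summed level of the 21 immediate early genes, which dissociation can also induce, was 26360 to 34330 CPM in WT and 13720 to 17760 CPM in Aromhum *Esr1*-high HAFs, without overlap. Of these 21 genes 11 fell and 0 rose, among them *Fos* (-2.01, SE 0.252), *Ier3* (-1.29, SE 0.188), *Egr1* (-1.19, SE 0.201) and *Zfp36* (-1.95, SE 0.339). *Cyr61* and *Ctgf* are themselves rapidly induced genes, and the part of this list in their lower levels was not tested. The summed level of the 7 fibroblast markers was also lower, 39440 to 48330 CPM in WT and 29380 to 32680 CPM in Aromhum mice.

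In FAPs, *Wisp1* and *Wisp2* rose and the other members did not pass the test. *Wisp1* was at 6.53, 5.76 and 7.04 CPM in WT and 18.9, 14.9 and 9.79 CPM in Aromhum FAPs, and rose by 1.17 (SE 0.256, edgeR adjusted p = 0.0293). *Wisp2* was at 21.7, 14.97 and 14.9 CPM in WT and 56.2, 40.4 and 24.4 CPM in Aromhum FAPs, and rose by 1.22 (SE 0.295, edgeR adjusted p = 0.0410). In both genes every Aromhum mouse was above every WT mouse and Arom3 was nearest to WT. Of the genes tested in FAPs 5.46% were called, 626 of 11457, and of the members 2 of 5. *Nov*, with 125, 138 and 131 CPM in WT and 118, 107 and 117.5 CPM in Aromhum FAPs, did not overlap either, so that 3 of 5 members stood apart, and 27.7% of the genes tested. *Ctgf* differed by 0.01 (SE 0.186), *Cyr61* by 0.06 (SE 0.204) and *Nov* by -0.20 (SE 0.0947, edgeR adjusted p = 0.258). Both calls were lost without any 1 mouse other than Arom3 (*Wisp1* 0.91 to 1.22, *Wisp2* 0.87 to 1.46, adjusted p up to 0.131 and 0.169) and within the study's limits on cells (0.38 and 0.72), and *Wisp2* also with DESeq2 (1.23, adjusted p = 0.0509).

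*Dmkn*-high fibroblasts had little *Wisp2* in WT, 17.9, 2.77 and 5.25 CPM, and 134, 105.0 and 29.9 CPM in Aromhum mice. The groups did not overlap, and *Wisp2* rose by 2.96 (SE 0.620, edgeR adjusted p = 0.0444), the only member called where 1.76% of genes were, 175 of 9949. The call was lost without any 1 mouse other than Arom3 (2.60 to 4.60, the highest without WT1, adjusted p up to 0.172) and without doublets (2.96, edgeR adjusted p = 0.0761). The fibroblast marker sum also stood apart, at 19880 to 26030 CPM in WT and 31480 to 47000 CPM in Aromhum mice, and its part in the *Wisp2* difference was not tested. *Ctgf*, at its lowest in this group, differed by 1.23 (SE 0.427, edgeR adjusted p = 0.17; with the replicate number as a block 1.36, edgeR adjusted p = 0.00891), with 34.3, 10.2 and 45.1 CPM in WT and 100.4, 38.0 and 81.5 CPM in Aromhum mice.

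In tenocytes and tenocyte progenitors edgeR called no member with all 6 mice, TMM, the filter on low counts and no replicate block. In tenocytes, where 0.988% of genes were called, *Wisp1* was at 89.7, 72.0 and 113 CPM in WT and 147, 182 and 130 CPM in Aromhum mice, without overlap (difference 0.66, SE 0.181, edgeR adjusted p = 0.0999), and *Wisp2* at 122, 121 and 104 CPM and 252.5, 140.5 and 220.5 CPM (0.77, SE 0.207, edgeR adjusted p = 0.0948, and 0.0442 with the replicate number as a block). Without the filter *Wisp1*, *Wisp2* and *Nov* were called in tenocytes (edgeR adjusted p = 0.0358, 0.0237 and 0.0465), and DESeq2 called *Wisp2* in tenocytes (adjusted p = 0.0267) and *Nov* in tenocyte progenitors (adjusted p = 0.0492). In tenocytes edgeR also called *Wisp2* without Arom2 (adjusted p = 0.0442) and *Wisp1* without Arom3 (adjusted p = 0.0406). In tenocytes *Nov* differed by -1.32 (SE 0.456, edgeR adjusted p = 0.168), with WT2 at 123 CPM, the other WT mice at 33.4 and 35.0 CPM and the Aromhum mice at 19.6, 22.5 and 36.5 CPM. In tenocyte progenitors edgeR called 0 of 10616 genes (0.00%), with 1103 at an unadjusted p under 0.05, and *Wisp2* was at 206, 147 and 158 CPM in WT and 282, 238 and 305 CPM in Aromhum mice (0.65, SE 0.177).

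*Mmp3*-high HAFs could not be compared, since WT mice had 15, 1 and 0 of these cells and Aromhum mice 1018, 1842 and 27. Their *Wisp2* level was 190 CPM in WT1 and 866, 1030.0 and 502 CPM in Aromhum mice. Without these cells, an alternative added after the data were seen, the fibroblast-like differences were 0.92 for *Wisp1* (edgeR adjusted p = 0.0289) and 1.63 for *Wisp2* (edgeR adjusted p = 0.0633), where 14.7% of genes were called.

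**Figure D3:**
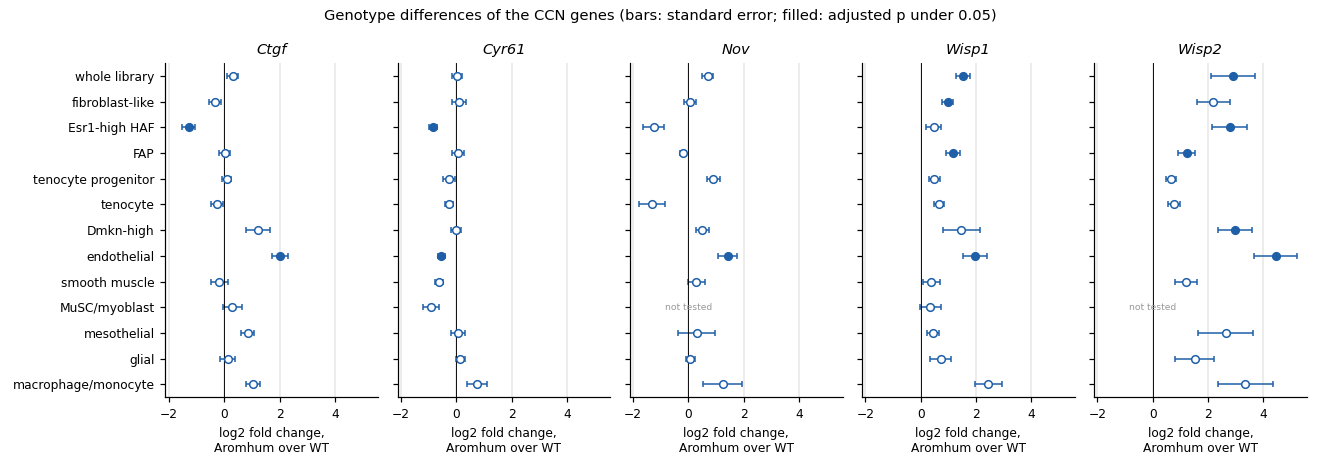
Difference between Aromhum and WT mice in log2 of the level for each CCN gene, by cell type and fibroblast group, from edgeR on sums per mouse; bars are 1 standard error to each side and filled points passed an adjusted p of 0.05. The calls are *Wisp1* in fibroblast-like cells, 3 members in *Esr1*-high HAFs, 2 in FAPs and 1 in *Dmkn*-high fibroblasts. All 5 were called in endothelial cells and 2 in whole libraries. Of all genes tested, 13%, 12.1%, 5.46%, 1.76%, 19.0% and 23.6% were called, in the same order.

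The groups that supplied the transcripts differed between genotypes. Among fibroblast-like cells, tenocyte progenitors held 57.3% to 72.3% of the *Wisp2* UMIs of a WT mouse and 2.98%, 1.602% and 34.2% in Arom1, Arom2 and Arom3. *Esr1*-high HAFs held 6.23% to 11.5% in WT and 29.4% to 43.0% in Aromhum mice. *Mmp3*-high HAFs held at most 1.07% in WT, 46.8% and 51.0% in Arom1 and Arom2, and 5.09% in Arom3. The *Wisp1* share of tenocytes was 27.2% to 50.4% in WT and 8.39% to 26.3% in Aromhum mice, and that of tenocyte progenitors 14.5% to 18.8% and 1.255% to 4.35%. *Esr1*-high HAFs held 17.4% to 42.8% and 53.6% to 56.5% of the *Wisp1* UMIs. *Mmp3*-high HAFs held at most 0.769% of them in WT, 21.5% and 29.5% in Arom1 and Arom2, and 0.992% in Arom3.

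The cell numbers moved with these shares. *Esr1*-high HAFs were 8.45% to 12.7% of fibroblast-like cells in WT and 21.5% to 28.6% in Aromhum mice. Tenocyte progenitors were 25.2% to 35.5% and 7.34% to 13.6%. Equal weight was also given, with limma, to each named fibroblast group with at least 10 cells in every mouse. This left out *Mmp3*-high HAFs, which had too few WT cells. The difference was then 0.92 for *Wisp1* (limma adjusted p = 0.106) and 1.69 for *Wisp2* (limma adjusted p = 0.0197). For *Ctgf*, which *Esr1*-high HAFs held at 29.5% to 39.6% in WT and 44.4% to 56.8% in Aromhum mice while its level in them fell, the equal-weight difference was 0.03 (limma adjusted p = 0.948). That value averages log2 levels, so groups of high and low level count the same. Mean *Ctgf* went from 1650 CPM in WT to 694 CPM in Aromhum *Esr1*-high HAFs, and from 29.9 to 73.3 CPM in *Dmkn*-high fibroblasts. The part of the cell mix in the *Ctgf* difference was not tested.

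**Figure D4:**
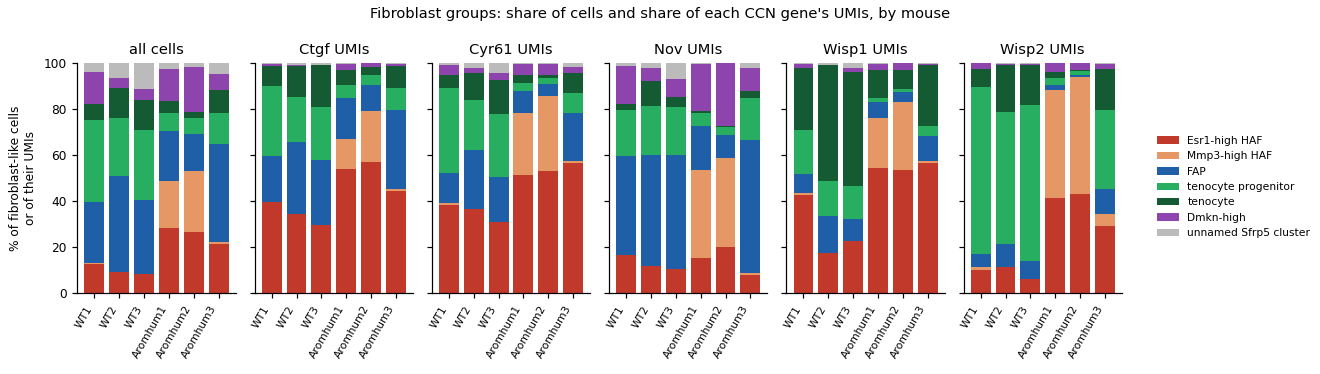
Share of each CCN gene's UMIs in fibroblast-like cells that came from each fibroblast group, in percent, as stacked bars with 1 bar per mouse. Most *Wisp2* UMIs came from tenocyte progenitors in the WT mice and from *Esr1*-high and *Mmp3*-high HAFs in Arom1 and Arom2.

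Endothelial cells line the blood vessels. All 5 members were called in them, 4 higher and *Cyr61* lower in Aromhum mice, where 19.0% of genes were called, 2375 of 12524. *Ctgf* was at 30.3, 20.7 and 33.8 CPM in WT and 164, 131 and 68.0 CPM in Aromhum mice, and rose by 2.02 (SE 0.304, edgeR adjusted p = 0.00444). *Cyr61* was at 431, 450.2 and 374 CPM in WT and 316, 278 and 309.7 CPM in Aromhum mice, and fell by 0.54 (SE 0.121, edgeR adjusted p = 0.0170). For each of these genes the genotypes did not overlap.

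*Nov* was at 5.12, 3.99 and 9.48 CPM in WT and 16.6, 12.5 and 22.7 CPM in Aromhum endothelial cells, and rose by 1.41 (SE 0.340, edgeR adjusted p = 0.0221). *Wisp1* was at 1.53, 0.942 and 1.57 CPM and 7.93, 6.57 and 2.35 CPM, and rose by 1.96 (SE 0.438, edgeR adjusted p = 0.0171). *Wisp2* was at 1.45, 0.443 and 0.711 CPM and 26.99, 28.0 and 3.49 CPM, and rose by 4.44 (SE 0.773, edgeR adjusted p = 0.00721). Every Aromhum mouse was above every WT mouse in the 3 genes, so that 5 of 5 members did not overlap (40.3% of the genes tested), with Arom3 nearest to WT in *Wisp1* and *Wisp2*. *Ctgf* and *Wisp2* were called without each mouse in turn, whereas *Cyr61* lost its call without WT1, WT2, Arom1 or Arom2 (-0.57 to -0.46, adjusted p up to 0.0679), *Nov* without WT1, WT2 or Arom1 (1.15 to 1.46, up to 0.0652) and *Wisp1* without WT2, Arom1 or Arom2 (1.59 to 1.86, up to 0.0766).

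Within the study's limits on cells, which left 506 to 1410 endothelial cells a mouse, *Ctgf* (1.94, SE 0.336, edgeR adjusted p = 0.0111), *Cyr61* (-0.66, SE 0.170, edgeR adjusted p = 0.0394) and *Nov* (1.29, SE 0.337, edgeR adjusted p = 0.0405) were still called, where 825 of 10120 genes were. *Wisp1* and *Wisp2* were too low there to be tested. *Wisp1* was at 1.51, 0.393 and 0.955 CPM in WT and 0.943, 0.348 and 0.761 CPM in Aromhum mice, from 1 to 8 UMIs a mouse, so the groups overlapped and the Aromhum mean of 0.684 CPM was below the WT mean of 0.954 CPM. *Wisp2* was at 1.32, 0 and 0.478 CPM and 4.72, 6.61 and 1.27 CPM, and Arom3 lay below WT1.

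Fibroblast transcripts also differed between the genotypes in endothelial cells. All 7 fibroblast markers were above 0 in endothelial cells and higher in every Aromhum mouse than in every WT mouse, with a summed level of 369 to 451 CPM in WT and 1539 to 3244 CPM in Aromhum mice. Per 1000 fibroblast marker UMIs, *Wisp2* had 3.83, 0.983 and 1.93 UMIs in WT and 8.32, 10.4 and 2.27 in Aromhum endothelial cells, against 2.20, 1.56 and 1.66 and 9.76, 14.9 and 2.38 in fibroblast-like cells. In both, Arom3 had the lowest *Wisp2* ratio of the Aromhum mice. *Ctgf* had 79.8, 46.0 and 91.5 UMIs per 1000 in WT and 50.5, 48.8 and 44.2 in Aromhum endothelial cells, against 12.7 to 19.4 and 10.6 to 17.9 in fibroblast-like cells, so its ratio was above that of fibroblast-like cells in every mouse, as were those of *Nov* and *Wisp1*. *Nov* had 13.5, 8.85 and 25.7 UMIs per 1000 in WT and 5.10, 4.65 and 14.8 in Aromhum endothelial cells, with overlap (1.75 to 3.26 in fibroblast-like cells), and *Wisp1* 4.03, 2.09 and 4.24 and 2.45, 2.44 and 1.53, also with overlap (0.378 to 1.08 in fibroblast-like cells). *Cyr61* had 1136, 998 and 1015 in WT and 97.4, 103 and 201 in Aromhum mice.

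The endothelial cells came from 6 clusters, called here by a leading gene. A cluster led by the cell cycle gene *Ube2c* had 4441 to 6204 CPM of the fibroblast markers in WT and 11720 to 20550 CPM in Aromhum mice, and was 0.468% to 1.77% of endothelial cells in WT and 3.66% to 4.90% in Aromhum mice. Its *Wisp2* level was at most 0.997 CPM in WT and 162, 159.5 and 21.9 CPM in Aromhum mice. Without it, an alternative added after the data were seen, *Ctgf* (2.13, SE 0.291, edgeR adjusted p = 0.00548), *Cyr61* (-0.52, SE 0.126, edgeR adjusted p = 0.0265) and *Wisp2* (2.29, SE 0.545, edgeR adjusted p = 0.0247) were still called. *Nov* (1.14, edgeR adjusted p = 0.0546) and *Wisp1* (0.45, edgeR adjusted p = 0.53) were not, where 14.2% of genes were called.

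The cluster led by *Ackr1*, a chemokine receptor of venules, grew from 14.4%, 7.17% and 11.9% of endothelial cells in WT to 39.8%, 29.0% and 27.5% in Aromhum mice. It had the least *Cyr61* of the 6 clusters, 147, 97.8 and 93.5 CPM in WT and 215, 187 and 169 CPM in Aromhum mice, against 260 to 715 CPM in the others. Within the *Ackr1* cluster the *Cyr61* difference of 0.63 (SE 0.175) did not pass the test (edgeR adjusted p = 0.103), although every Aromhum mouse was above every WT mouse. In 2 other clusters every Aromhum mouse was below every WT mouse: *Cyr61* was at 673, 535 and 533 CPM in WT and 445, 386 and 510.1 CPM in Aromhum mice in the cluster led by *Timp4*, and at 534, 706 and 490 CPM and 401, 329 and 425 CPM in that led by *Cytl1*. The genotypes overlapped in the remaining 3 clusters. In endothelial cells as a whole they did not overlap in 40.3% of the genes tested, and that share was not taken in single clusters. *Ctgf* rose within the *Ackr1* cluster by 1.98 (SE 0.299, edgeR adjusted p = 0.0196), where 1.06% of genes were called. It went from 48.2, 36.5 and 28.9 CPM to 213, 195 and 86.6 CPM. The fibroblast markers summed to 84.0 to 224 CPM in WT and 214 to 311 CPM in Aromhum mice there, with overlap. *Nov* differed by -0.13 in this cluster (edgeR adjusted p = 0.901). Every Aromhum mouse was also above every WT mouse in *Ctgf* in the *Cldn5* and *Cytl1* clusters. The genotypes overlapped for *Ctgf* in the *Timp4*, *Egfl7* and *Ube2c* clusters.

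**Figure D5:**
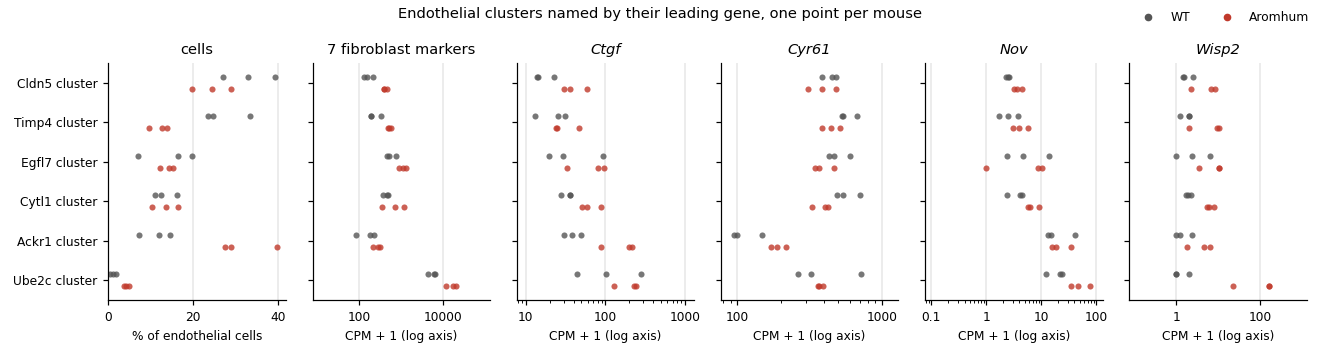
Endothelial clusters by leading gene, 1 point per mouse (WT grey, Aromhum red): the share of endothelial cells in percent, then the summed fibroblast markers and the levels of *Ctgf*, *Cyr61*, *Nov* and *Wisp2* on log axes of CPM + 1. The *Ackr1* cluster takes a larger share in every Aromhum mouse and has the lowest *Cyr61*, and the *Ube2c* cluster has the most fibroblast marker transcript.

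Whether the genotype effect differed between fibroblast-like and endothelial cells was tested as an interaction with the mouse as a block. It differed for *Ctgf*, by -2.34 (fibroblast-like minus endothelial, SE 0.416, edgeR adjusted p = 0.0104), and for *Wisp2*, by -2.21 (SE 0.264, edgeR adjusted p = 0.00220), with 14.6% of genes called. The effects in fibroblast-like cells were -0.34 and 2.19 and in endothelial cells 2.02 and 4.44, so that *Ctgf* had opposite signs, called in endothelial cells alone, and *Wisp2* the same sign. Without the *Ube2c* cluster the endothelial *Wisp2* effect was 2.29, beside 2.19 in fibroblast-like cells, and the difference of effect was not tested without it. With limma voom the *Wisp2* difference was -2.13 (adjusted p = 0.44). The other 3 members were not called, with *Cyr61* at 0.60, *Nov* at -1.42 and *Wisp1* at -0.93 (edgeR adjusted p = 0.132, 0.0810 and 0.112). Between fibroblast-like and smooth muscle cells no member's effect was called as different, where 3.79% of genes were.

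In the remaining cell types edgeR called none of the members tested, with all usable mice, TMM, the filter on low counts and no replicate block. All 5 were tested in smooth muscle, mesothelial and glial cells and macrophages, and 4 in myonuclei. MuSCs and lymphatic endothelial cells had 3 tested and T cells 1. In neutrophils, with 4 usable mice, 0 members passed the filter and none was tested. The share of genes called was 0.5% in glial, 0.0654% in lymphatic endothelial, 0.53% in myonuclei, 1.01% in T and 0.262% in neutrophil cells. Smooth muscle cells came nearest, with *Cyr61* at 809, 833 and 819.5 CPM in WT and 512, 554 and 594 CPM in Aromhum mice, without overlap (-0.63, SE 0.143, edgeR adjusted p = 0.0505; 2.04% of genes called). MuSCs had *Cyr61* at 879, 899 and 889 CPM in WT and 655, 283 and 565 CPM in Aromhum mice (-0.91, SE 0.279, edgeR adjusted p = 0.104; 2.13% of genes called). WT MuSCs were close to each other, and all Aromhum mice lay below them. With DESeq2 *Cyr61* was called in smooth muscle cells (adjusted p = 0.00550; with edgeR and RLE size factors 0.0499) and MuSCs (adjusted p = 0.0171), at nearly the same differences. DESeq2 also called *Ctgf* and *Wisp2* in mesothelial cells (adjusted p = 0.0414 and 0.0290) and *Wisp1* in macrophages (adjusted p = 0.0314). Without Arom3 edgeR called *Cyr61* in smooth muscle cells (adjusted p = 0.0163), *Ctgf* in T cells (adjusted p = 0.00615), and *Wisp2* in MuSCs, T cells, macrophages and mesothelial cells (3.12 to 4.23, adjusted p up to 0.0227). With the replicate number as a block edgeR called *Cyr61* in both smooth muscle cells and MuSCs as well (adjusted p = 0.0134 and 0.0342), and so it did without the filter on low counts (adjusted p = 0.0400 and 0.0424), where *Wisp2* in MuSCs and *Ctgf*, *Cyr61* and *Wisp2* in T cells were also called. Fibroblast markers summed to 2228 to 3817 CPM in WT and 3848 to 6024 CPM in Aromhum smooth muscle cells, and to 621 to 866 and 1354 to 3692 CPM in MuSCs. In mesothelial cells *Ctgf* was at 57.3, 55.3 and 97.5 CPM in WT and 99.5, 103 and 149 CPM in Aromhum mice (0.85, SE 0.240, edgeR adjusted p = 0.115, and 0.0321 with the replicate block; 0.222% of genes called). In macrophages edgeR without the block called 0 of 9496 genes (0.00%), 718 had an unadjusted p under 0.05, and *Wisp1* differed by 2.45 (SE 0.490), with a fibroblast marker sum of 996 to 2400 CPM in WT and 2143 to 5725 CPM in Aromhum mice. With the block *Wisp2* was called in them (3.51, edgeR adjusted p = 0.0241).

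Over whole libraries, *Wisp1* and *Wisp2* were higher in Aromhum mice. *Wisp1* was at 12.5, 7.04 and 9.91 CPM in WT and 31.0, 29.3 and 23.4 CPM in Aromhum libraries (1.54, SE 0.258, edgeR adjusted p = 0.0181), and *Wisp2* at 49.2, 23.1 and 19.6 CPM and 257, 360 and 51.2 CPM (2.91, SE 0.784, edgeR adjusted p = 0.0441). Of the genes 23.6% were called, 3612 of 15334. *Nov* differed by 0.69 (SE 0.209, edgeR adjusted p = 0.0595, and 0.0168 with the replicate block), *Ctgf* by 0.30 (SE 0.183) and *Cyr61* by 0.03 (SE 0.189). *Wisp1* lost its call without WT2, WT3, Arom1 or Arom2 (1.33 to 1.54, adjusted p up to 0.0777) and *Wisp2* without any 1 mouse other than Arom3 (2.37 to 3.47, adjusted p up to 0.140). Within the study's limits on cells neither was called: *Wisp1* differed by 0.32 (SE 0.161, edgeR adjusted p = 0.415) and *Wisp2* by 1.55 (SE 0.599, edgeR adjusted p = 0.361). Fibroblast-like cells were a larger part of each Aromhum library, 5012 of 12011, 6922 of 13764 and 3612 of 8979 barcodes against 3688 of 10168, 2570 of 10820 and 1763 of 7905 in WT, and their part in the differences over whole libraries was not tested.

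Genes linked to the family were read from lists chosen for their roles. Each count stands beside the share of all genes called, 13% in fibroblast-like cells, 12.1% in *Esr1*-high HAFs, 5.46% in FAPs and 1.76% in *Dmkn*-high fibroblasts. Of 15 CCN receptors and binding partners tested in fibroblast-like cells, 1 rose and 2 fell: the integrin gene *Itgb3* (0.93, SE 0.135), and *Itga6* (-1.72, SE 0.450) with the proteoglycan gene *Dcn* (-0.80, SE 0.199). The list's median was 0.21, beside a median of -0.00 over all genes tested. In *Esr1*-high HAFs 3 of 13 rose, among them *Itgb3* (2.81, SE 0.552) and the fibronectin gene *Fn1* (1.21, SE 0.275), and 3 fell, among them *Dcn* (-1.06, SE 0.174) and *Lrp6* (-0.55, SE 0.133). *Itgb3* also rose in FAPs (0.64, SE 0.117), as 1 of 13, and in *Dmkn*-high fibroblasts (0.82, SE 0.169) with *Bgn* (2.26, SE 0.362), as 2 of 12. In endothelial cells 8 of 14 rose and 0 fell, with *Lrp1* (2.17, SE 0.155), *Dcn* (1.68, SE 0.146), *Fn1* (1.36, SE 0.162) and *Itgb3* (3.49, SE 0.476) ahead. *Dcn* is also among the fibroblast markers. The endothelial counts of this and the following lists stand beside 19.0% of all genes called and the fibroblast marker sum, 369 to 451 CPM in WT and 1539 to 3244 CPM in Aromhum mice, whose part in them was not tested.

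Other YAP and TAZ target genes were called in both directions in fibroblast-like cells and *Esr1*-high HAFs, and as higher alone in endothelial cells. In fibroblast-like cells 1 of 20 rose, *Myof* (0.46, SE 0.113), and 3 fell, *F3* (-1.04, SE 0.123), *Nt5e* (-1.33, SE 0.185) and *Igfbp3* (-1.01, SE 0.172), with a list median of -0.02. In *Esr1*-high HAFs, where *Ctgf* and *Cyr61* fell, 4 of 19 fell, among them *Nt5e* (-2.66, SE 0.391), *Fjx1* (-0.80, SE 0.167) and *Ccdc80* (-1.10, SE 0.251), and *Axl* rose (0.54, SE 0.116), with a median of -0.22 beside -0.01 over all genes. In endothelial cells, with their higher fibroblast marker sum in every Aromhum mouse, 8 of 18 rose and 0 fell, led by *Ccdc80* (2.37, SE 0.244), *Axl* (2.33, SE 0.253), *Rbms3* (1.37, SE 0.163) and *Myof* (1.45, SE 0.223). In FAPs 1 of 19 was called, *Nt5e* (-0.92, SE 0.235), and in *Dmkn*-high fibroblasts none of 17, where the smallest p-values were those of *F3* (-0.83) and *Igfbp3* (-1.12). Of the Hippo kinases, their regulators and the TEAD factors, 1 of 17 fell in fibroblast-like cells, *Amot* (-0.88, SE 0.144), and 1 of 17 in *Esr1*-high HAFs, *Amotl2* (-0.61, SE 0.147), which is also in the list of YAP and TAZ targets. None was called in FAPs (17 tested, *Tead1* 0.48 and *Amotl2* -0.57 with the smallest p-values), *Dmkn*-high fibroblasts (16 tested, *Sav1* -0.71 and *Amotl2* -0.56) or endothelial cells (18 tested, *Amotl2* -0.53 and *Lats1* 0.29).

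TGF-beta responsive genes rose in part. In fibroblast-like cells 5 of 15 rose and 0 fell, with a median of 0.93: among them were *Pmepa1* (1.18, SE 0.152), the matricellular gene *Postn* (1.29, SE 0.210), *Cthrc1* (3.54, SE 0.705) and *Col3a1* (1.01, SE 0.230). In *Esr1*-high HAFs 2 of 15 rose, *Pmepa1* (1.16, SE 0.131) and *Cthrc1* (2.83, SE 0.566), and 2 fell, *Tgfbi* (-1.91, SE 0.435) and *Smad7* (-0.73, SE 0.168). In FAPs 6 of 15 rose, among them *Postn* (1.80, SE 0.208), *Cthrc1* (2.62, SE 0.452) and *Lox* (1.13, SE 0.227), and *Tgfbi* fell (-1.74, SE 0.213). In *Dmkn*-high fibroblasts 3 of 14 rose, *Cthrc1* (4.37, SE 0.661), *Col3a1* (1.57, SE 0.289) and *Thbs1* (1.85, SE 0.358), and *Tgfbi* fell (-2.81, SE 0.323). In endothelial cells 11 of 15 rose and 0 fell, led by the fibroblast markers *Col1a1* (3.81, SE 0.436) and *Col3a1* (3.54, SE 0.425), with *Thbs1* (2.38, SE 0.319) and *Postn* (3.30, SE 0.496). *Cthrc1* is also a marker used to name *Mmp3*-high HAFs and *Tgfbi* one of tenocyte progenitors, groups whose shares differed between genotypes.

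Of 8 Wnt target genes tested in fibroblast-like cells 2 rose, *Tcf7* (1.46, SE 0.262) and *Notum*, and *Nkd1* fell (-0.83, SE 0.167). *Notum* had no UMI in WT fibroblast-like cells and 0.775 CPM on average in Aromhum mice, so no fold is given. In *Esr1*-high HAFs 3 of 7 fell, *Nkd2* (-2.72, SE 0.305), *Nkd1* (-1.75, SE 0.262) and *Lgr5* (-1.90, SE 0.361), and *Notum* was the 1 that rose. None of 4 was called in FAPs (*Znrf3* -0.69 and *Nkd2* -0.59 with the smallest p-values) or endothelial cells (*Znrf3* 0.46 and *Nkd1* -0.43), and neither of the 2 tested in *Dmkn*-high fibroblasts was (*Nkd2* -0.27 and *Axin2* 0.13).

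Immediate early genes fell in fibroblast-like cells, 5 of 21 with 0 higher, among them *Fos* (-1.25, SE 0.199) and *Zfp36* (-1.36, SE 0.264), and in endothelial cells, 10 of 21 with 0 higher, among them *Egr1* (-1.02, SE 0.143) and *Btg2* (-1.01, SE 0.141). In FAPs 5 of 21 fell and 0 rose, and in *Dmkn*-high fibroblasts *Socs3* (-1.67, SE 0.273) and *Zfp36* (-0.90, SE 0.194) fell and *Egr2* rose (1.65, SE 0.286). Their summed level was 21890 to 24840 CPM in WT and 14300 to 17790 CPM in Aromhum fibroblast-like cells, and 25990 to 31630 CPM and 18250 to 22400 CPM in endothelial cells, without overlap. The part of these genes in the lower *Cyr61* of endothelial cells was not tested.

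The estrogen receptor gene *Esr1* (0.89, SE 0.139) and its targets *Pgr* (5.07, SE 0.625) and *Greb1* (2.12, SE 0.237) rose in fibroblast-like cells, as did all 3 in endothelial cells. In *Esr1*-high HAFs 1 of 3 rose, *Pgr* (3.72, SE 0.448), in FAPs 2 of 3, *Greb1* (2.37, SE 0.354) and *Pgr* (4.04, SE 0.787), and in *Dmkn*-high fibroblasts 1 of 3, *Greb1*. All 3 genes are also markers used to name *Esr1*-high HAFs.

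Single cells with 2 members were counted in fibroblast-like cells thinned to 1000 UMIs, as a description of cells that share libraries and groups. Cells with both *Ctgf* and *Cyr61* numbered 416, 248 and 193 in WT and 549, 694 and 369 in Aromhum mice, above the 282, 175 and 150.4 and the 445, 546 and 311 that independent detection would give in each mouse. *Ctgf* with *Wisp2*, *Cyr61* with *Wisp2*, and *Wisp1* with *Wisp2* were also above independent detection in 6 of 6 mice. *Nov* with *Wisp1* was above it in 0 of 6. Some of these margins were narrow or rested on few cells. *Ctgf* with *Wisp2* had 33 cells in WT2, against 31.83. *Wisp1* with *Wisp2* had 5, 2 and 3 cells in WT, against 3.784, 1.884 and 2.266. In Aromhum mice it had 42, 75 and 10, against 29.62, 49.07 and 7.198. *Nov* with *Wisp1* had 0, 2 and 0 cells in WT.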

How the data were processed

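Single-cell RNA-Seq of LAM was analysed from 3 WT and 3 Aromhum libraries, grouped by GEO's labels. The authors deposited raw UMI counts per gene and barcode, made with Cell Ranger 3.0.2 on mm10 per the submitters' processing notes; the study then kept cells with 200 to 2500 genes, 1000 or more UMIs and no more than 5% mitochondrial UMIs, and then left out outliers by median absolute deviation, a step not applied here. Every deposited barcode was kept, the limits on genes, UMIs and mitochondrial UMIs were an alternative (called the study's limits), and no doublets were removed in the main analysis. An upper limit on genes leaves out large cells, and free RNA from other cells adds UMIs to every type.

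Counts were scaled to 10000 per cell, and cells were clustered with leidenalg 0.10.2 (resolution 0.8, 2000 variable genes without the CCN genes, 30 principal components, 20 neighbours, seed 1). Clusters were named from marker lists when at least 3 markers were detected and their leading genes did not go against the name. UMIs were summed per mouse and cell group (at least 10 cells, and 2 mice of each genotype) and tested with edgeR 4.0.16 (TMM, filterByExpr, quasi-likelihood test) in R 4.3.3, with Benjamini-Hochberg adjustment over all genes tested and a threshold of 0.05. A "call" is an adjusted p under 0.05, and differences are Aromhum minus WT in log2. Alternatives used DESeq2 1.42.0, limma 3.58.1 and Scrublet in scanpy 1.11.5 (the top 5% of doublet scores in each library). In simulated data, 61.0% of genes changed 2-fold and 93.0% of those changed 4-fold were recovered in fibroblast-like cells, 53.0% and 94.0% in *Esr1*-high HAFs, and 78.0% and 95.0% in endothelial cells. Precision is limited by 3 mice a genotype, and p-values measure the spread between these mice.

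The members and the gene lists were chosen with earlier results of these data known. Named in the text were the 5 members throughout and, in fibroblast-like cells and each group with a member called, up to 4 called genes with the smallest p from each list (2 genes where none was called), as well as the 3 genes most like each member among those at 10 CPM or more in a group. For *Cyr61*, 1 of these is not reported here. The study processed 1 WT and 1 Aromhum littermate on each date, but the labels tie no number to a date, so whether same-numbered mice are pairs is not known. The correlation of their deviations from the group means was 0.403, -0.044 and 0.436 for numbers 1, 2 and 3 in whole libraries. Mice of different numbers ran from -0.476 to 0.287 there. In fibroblast-like cells the values were 0.296, -0.146 and 0.250, beside -0.393 to 0.306 for different numbers. Same-numbered mice were above all others in endothelial cells (0.203, 0.196 and 0.327, beside -0.231 to 0.005). The same held in smooth muscle cells (0.172, 0.069 and 0.240, beside -0.185 to 0.054). The replicate number was therefore a block only as an alternative.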

Additional observations from a re-analysis of the deposited data

Results flagged for a closer look

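The genotype effect on *Ctgf* differed between fibroblast-like and endothelial cells by -2.34 on the log2 scale in a test of the difference itself (edgeR adjusted p = 0.0104), and that on *Wisp2* by -2.21 (edgeR adjusted p = 0.00220). With limma voom the *Wisp2* difference was not called (-2.13, adjusted p = 0.44), and without the *Ube2c* cluster the endothelial *Wisp2* effect was 2.29 in place of 4.44, beside 2.19 in fibroblast-like cells; the difference was not tested without it. Fibroblast markers were higher in Aromhum than in WT endothelial cells, at 1539 to 3244 against 369 to 451 CPM in sum, and their part in either difference was not tested.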

How the results depend on the processing

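Of 14 calls in cell types, fibroblast groups and whole libraries, all kept direction and call with RLE size factors, without a filter on low counts and with the replicate number as a block, and 13 each with DESeq2, with the mitochondrial limit alone and without doublets. The study's limits on cells, which leave 1532 to 4932 barcodes a library, ended 8 of the 11 calls that could be fitted there. Leaving out each mouse in turn, also for the 2 differences of effect, ended the call in 51 of 96 fits. The cause was not tested, and 3 mice a genotype set the precision.

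Members called in fibroblast-like cells numbered 1, and 2 with DESeq2, 0 within the study's limits and 0 to 2 without 1 mouse. Over fibroblast groups the number was 6, and 0 within the limits and 0 to 8 without 1 mouse. Over the other types it was 5, and 10 with DESeq2, 11 without a filter on low counts, 9 with the replicate block, 3 within the limits, 3 without the *Ube2c* cluster, 1 in the *Ackr1* cluster alone and 2 to 11 without 1 mouse. In whole libraries it was 2, and 0 within the limits, 1 with the mitochondrial limit alone and 0 to 3 without 1 mouse. For differences of effect it was 2, and 1 with limma voom and 2 to 6 without 1 mouse. Of all genes, the main fits called 13% in fibroblast-like cells, 12.1% in *Esr1*-high HAFs, 5.46% in FAPs and 1.76% in *Dmkn*-high fibroblasts. They called 19.0% in endothelial cells, 23.6% in whole libraries and 14.6% for the difference between fibroblast-like and endothelial cells. The number of all genes called also changed with the setting, so these counts are not results about the members alone.

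Genes called numbered 1824 in fibroblast-like cells, and 2885 with DESeq2, 1 within the limits, 893 with equal weight and limma in place of edgeR, and 3 to 4156 without 1 mouse. They numbered 2375 in endothelial cells (825 within the limits, 100 in the *Ackr1* cluster, 907 to 2717 without 1 mouse), 3612 in whole libraries (0 within the limits, 2397 with the mitochondrial limit, 0 to 4877 without 1 mouse) and 1472 in *Esr1*-high HAFs (38 within the limits, 176 to 2377 without 1 mouse). In FAPs they numbered 626 (1183 with the replicate block, 83 within the limits, 107 to 1199 without 1 mouse), and in *Dmkn*-high fibroblasts 175 (333 with DESeq2, 460 without a filter, 452 with the block, 0 within the limits, 0 to 987 without 1 mouse). The replicate block ended no call and added 8: *Nov* in *Esr1*-high HAFs and whole libraries, *Ctgf* in *Dmkn*-high fibroblasts and mesothelial cells, *Wisp2* in tenocytes and macrophages, and *Cyr61* in smooth muscle cells and MuSCs. Same-numbered mice correlated at 0.203, 0.196 and 0.327 in endothelial cells but not throughout.

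These differences changed sign, and none of the changed values was called. In fibroblast-like cells *Ctgf* was at 0.030 with equal weight and limma, *Cyr61* at -0.21 within the limits, -0.26 with equal weight, -0.025 without the *Mmp3*-high cluster and -0.026 to 0.32 without 1 mouse, and *Nov* at -0.0070 with the mitochondrial limit, -0.23 with equal weight, -0.19 without the *Mmp3*-high cluster and -0.094 to 0.24 without 1 mouse. Within the limits *Nov* was at 0.0046 in *Esr1*-high HAFs, *Cyr61* at -0.12 in FAPs and 0.061 in *Dmkn*-high fibroblasts, and *Ctgf* at -0.28 and *Cyr61* at -0.37 in whole libraries. *Ctgf* in FAPs was at -0.0058 with the mitochondrial limit. *Cyr61* in *Dmkn*-high fibroblasts was at 0.021 without a filter and 0.048 without doublets. In the *Ackr1* cluster alone *Cyr61* was at 0.63 and *Nov* at -0.13. Without 1 mouse *Ctgf* in FAPs ran from -0.13 to 0.25, *Cyr61* from -0.17 to 0.27 in FAPs, -0.17 to 0.11 in *Dmkn*-high fibroblasts and -0.071 to 0.19 in whole libraries.

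Within the limits the fibroblast-like level was 389 CPM for *Ctgf*, 515 CPM for *Cyr61*, 73.5 CPM for *Nov*, 19.5 CPM for *Wisp1* and 121 CPM for *Wisp2*. With all cells it was 573, 628, 98.3, 30.1 and 210 CPM. Thinned to 1000 UMIs, 26.9% of fibroblast-like cells had *Ctgf*, 30.9% *Cyr61*, 7.21% *Nov*, 2.55% *Wisp1* and 10.6% *Wisp2*.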
